A study of Mus musculus with 4 samples.

Results

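Osteocalcin-high mature osteoblasts are the bone-forming cells of the mouse metaphysis whose libraries were dominated by Bglap, the gene of osteocalcin. They were taken from single-cell RNA sequencing of non-hematopoietic stromal cells as barcodes with at least 1000 unique molecular identifiers (UMIs, each standing for 1 captured RNA molecule), at least 800 genes, under 15% mitochondrial and under 5% hemoglobin counts, and then at least 200 Bglap UMIs per 10000, at least 1 Ifitm5 UMI and no Cdh5 or Ptprc UMI. This rule found 1153 of 24739 barcodes that passed the quality filters, 161 in the Lats2iECKO and 992 in the control libraries. Each genotype had 2 libraries, made at 12 weeks of age from the metaphysis of femur and tibia after collagenase digestion and bead depletion of lineage-positive, CD45+ and CD117+ cells. Lats2iECKO mice carried loxP-flanked Lats2 alleles and the Cdh5(PAC)-CreERT2 transgene, which places tamoxifen-inducible Cre under an endothelial promoter. Controls were littermates without Cre. The labels call the controls untreated, whereas the methods of the study state that they received the same tamoxifen injections on 5 consecutive days. The background was C57/BL6 with animals of both sexes, and a Cdh5(PAC)-mT/nG reporter, which labels endothelial cells, was also used in the study. The osteoblasts themselves are therefore not the cells that the Cre transgene targets. The comparison of genotypes asks how osteoblasts differ when Lats2 is deleted in the endothelium beside them. The labels give no animal numbers, so the p-values measure the spread between libraries.

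Osteoblasts derive from stromal progenitors through a step that needs the transcription factors RUNX2 and SP7. They first secrete a matrix of type I collagen and then mineralize it, and osteocalcin is made late in this course. Osteoblasts that become embedded in the matrix turn into osteocytes, which switch on Dmp1, Phex and Mepe. Ifitm5 encodes a membrane protein restricted to the osteoblast lineage, Cpz a carboxypeptidase of the extracellular matrix and Car3 a carbonic anhydrase.

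The promoters of the marker genes that the reference held are shown because osteocalcin defines these cells and its promoter is a textbook target of RUNX2. Each is the 250 bases before the RefSeq start of the gene in GRCm38.p6, written in the direction of transcription, with the letters ACCACA, the core that RUNX factors bind, in capitals on either strand (TGTGGT on the other). They lie at chr3:88384467-88384716 (Bglap), chr7:140950244-140950493 (Ifitm5) and chr5:35525627-35525876 (Cpz), all on the minus strand.

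Bglap: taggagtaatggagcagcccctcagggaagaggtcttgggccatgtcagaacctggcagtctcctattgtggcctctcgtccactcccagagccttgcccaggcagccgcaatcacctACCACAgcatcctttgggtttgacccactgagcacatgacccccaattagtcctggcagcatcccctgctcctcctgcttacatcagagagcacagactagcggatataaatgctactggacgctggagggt

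Ifitm5: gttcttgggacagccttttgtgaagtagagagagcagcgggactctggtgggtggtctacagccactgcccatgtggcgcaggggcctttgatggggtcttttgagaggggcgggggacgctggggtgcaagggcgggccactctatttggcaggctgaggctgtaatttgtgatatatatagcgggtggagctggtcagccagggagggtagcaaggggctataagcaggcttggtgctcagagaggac

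Cpz: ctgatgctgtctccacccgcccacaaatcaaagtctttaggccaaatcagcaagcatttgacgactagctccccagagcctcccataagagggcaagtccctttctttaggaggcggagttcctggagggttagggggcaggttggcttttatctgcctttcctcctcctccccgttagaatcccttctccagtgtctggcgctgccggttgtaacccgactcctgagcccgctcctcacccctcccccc

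The letters were present 1 time in the Bglap promoter, starting 132 bases before the start, and were not in the other windows. Of 32851 promoters of the same length, 4614 (14.05%) held them, so a match is a description of the sequence only. Promoters matched for 3 of the 6 markers; Bglap2, Col1a1 and Car3 were without an entry.

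The members ranged from 203 to 2534 Bglap UMIs per 10000, with a median of 987. The medians were 837 and 951 in the Lats2iECKO libraries and 1000 and 1017 in the controls. Just inside the threshold, the lowest members had 221 and 203 Bglap UMIs per 10000 in Lats2iECKO and 206 in each control library. The highest barcodes just outside, with Ifitm5 and without Cdh5 or Ptprc, had 176 and 174 in Lats2iECKO and 198 and 194 in the controls. At 1000 or more Bglap UMIs per 10000 stood 41.0% and 44.6% of the Lats2iECKO members and 50% and 50.6% of the control members. Bglap and Ifitm5 chose the members, so these levels carry no test.

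**Figure D1:**
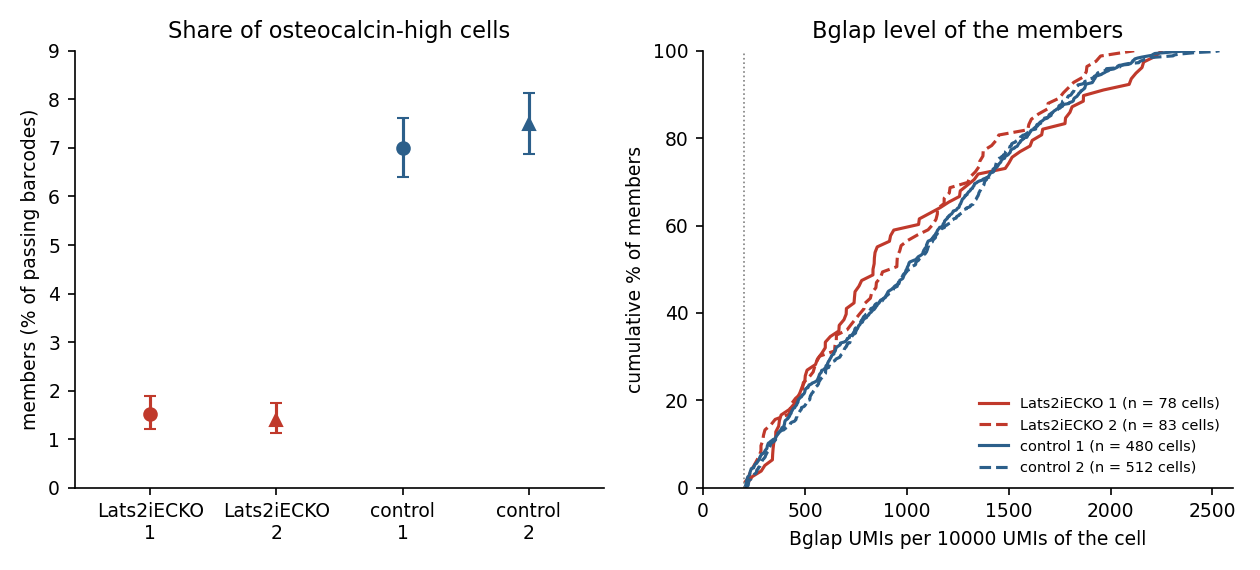
The left panel gives osteocalcin-high cells as a percent of passing barcodes in each library with 95% exact binomial intervals, and the right panel gives the cumulative percent of members against their Bglap UMIs per 10000, with the threshold of 200 dotted. The shares were 1.52% and 1.41% in Lats2iECKO and 6.99% and 7.49% in control libraries. Median levels of the members were 837 and 951 in Lats2iECKO and 1000 and 1017 in control libraries. Upper quartiles overlapped, at 1513 and 1366 against 1466 and 1447.

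Osteocalcin-high cells took a smaller share of both Lats2iECKO libraries than of both controls. They made up 78 of 5133 passing barcodes (1.52%, 95% exact binomial interval 1.20 to 1.89) in the first Lats2iECKO library and 83 of 5899 (1.41%, 1.12 to 1.74) in the second. In the controls they made up 480 of 6868 (6.99%, 6.40 to 7.62) and 512 of 6839 (7.49%, 6.87 to 8.14). The mean was 1.46% ± 0.080 (SD, n = 2) against 7.24% ± 0.35 (SD, n = 2), a ratio of control to Lats2iECKO of 4.95. The groups did not overlap, and the 2-sided exact permutation test gave p = 0.333, the smallest that 2 against 2 libraries allows. After Benjamini-Hochberg adjustment over 17 such library measures the value was 0.404. Intervals cover counting error only, and a share depends also on how many other cells were freed from the bone and kept by the depletion. Over barcodes without Cdh5 and Ptprc the shares were 1.74% and 1.63% against 8.28% and 8.82%. The Ifitm5 criterion removed a larger part of the Bglap-high barcodes in Lats2iECKO. Of those meeting the rest of the rule, 25 of 103 and 30 of 113 had no Ifitm5 UMI, against 64 of 544 and 50 of 562 in controls. Without this criterion the shares were 2.01% and 1.92% against 7.92% and 8.22%, with a ratio of 4.12.

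A second denominator took in the Col1a1-high cells below the Bglap threshold. Col1a1-high, Bglap-low cells, defined here as barcodes with at least 200 Col1a1 and under 200 Bglap UMIs per 10000, fewer than 2 Mepe UMIs and no Cdh5 or Ptprc UMI, made up 0.916% and 1.102% of Lats2iECKO and 2.11% and 1.90% of control barcodes. Of these cells and the members together, the members were 62.4% (95% exact binomial interval 53.3 to 70.9) and 56.1% (47.7 to 64.2) in Lats2iECKO. In the controls they were 76.8% (73.3 to 80.1) and 79.8% (76.4 to 82.8). This class was not free of other cells. It held Col2a1 at 5099 and 4958 CPM in Lats2iECKO against 1694 and 1453 CPM in control libraries, and Col3a1 at 2560 and 2242 against 600 and 846 CPM, and the part of this in the share was not tested. The ratio of the means was 1.32, below that of the share of all barcodes (exact permutation p = 0.333, adjusted 0.404). Members held 79.5% and 81.6% of all osteocalcin counts of passing barcodes in Lats2iECKO and 89.7% and 90.3% in control libraries.

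The members carried the markers of mature osteoblasts. In CPM, the counts of a gene per 1000000 counts of the summed members, Bglap stood at 112776 and 108822 in Lats2iECKO and 118149 and 118404 in control libraries. Ifitm5 stood at 549 and 579 against 618 and 662 CPM. Osteocalcin genes alone made up 15.9% to 17.0% of all member counts, and with Col1a1 and Col1a2 32.9% to 34.9%. The markers that the rule did not use directly were also far above the other passing barcodes, although genes of the chosen cells are no independent test. Cpz was at 326 to 386 CPM in members and 2.38 to 11.4 CPM elsewhere, and Car3 at 1880 to 1908 CPM against 19.1 to 127 CPM. A Car3 UMI was found in 98.7% to 99.6% of members, and in 3.09%, 2.71%, 8.23% and 8.97% of the Cdh5-positive (endothelial) barcodes of the same libraries. Thinned to 2000 UMIs per cell, these shares were 86.2% to 93.3% and 1.08% to 4.81%. The median member had 16911.5 and 20503 UMIs in Lats2iECKO and 21565 and 22578.5 in control libraries. The median other barcode had 8118 and 7857 against 7269 and 7341, the opposite order.

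**Figure D2:**
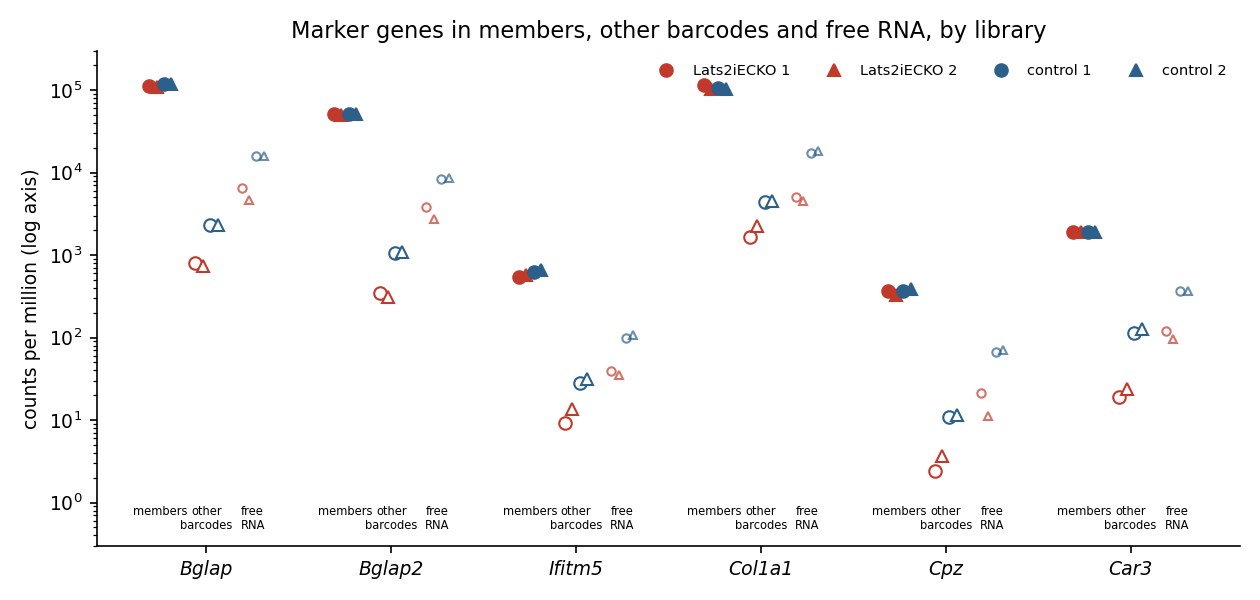
CPM on a log axis of the 6 markers in the summed members (filled), the other passing barcodes (open, large) and the free RNA of barcodes under 100 UMIs (open, small), with one symbol per library. Bglap was at 108822 to 118404 CPM in members in every library, while free RNA held 4616 to 6559 CPM in Lats2iECKO and 15834 to 16033 CPM in control libraries.

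Bglap (chr3:88290808-88291771), Bglap2 (chr3:88285043-88286060) and Bglap3 (chr3:88275923-88280052), all on the minus strand of GRCm39, are neighboring near-copies. A transcript of Bglap and one of Bglap2 were identical at 432 of 436 aligned positions (99.1%), so the split of reads between them is uncertain. Bglap2 took 31.5% and 31.1% of the osteocalcin counts of Lats2iECKO members and 30.5% and 30.1% of control members. Bglap chose the members, so this share carries no test. In free RNA the same share was 36.4% and 36.7% against 34.5% and 34.7%. Bglap3 was minor in members, with 336 to 518 CPM.

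Total depth was 69636600 and 78953446 UMIs in Lats2iECKO and 83453507 and 85899079 in control libraries, so both mutant libraries lay below both controls. The members summed to 1430761 and 1710525 UMIs in Lats2iECKO and to 10427124 and 11404104 in control libraries. The mutant sums are therefore the less precise, and single cells could weigh heavily in them. Between 22 and 40 passing barcodes of a library also occurred in another library, among them 1 to 3 members. Cre-ERT2 transcripts checked the labels: they were counted 284 and 317 times in Cdh5-positive barcodes of Lats2iECKO and 6 and 5 times in those of control libraries, and 0 times in members of any library. A count of 0 allows up to 3. Lats2, a kinase of the Hippo pathway, was at 82.9 and 87.0 CPM in Cdh5-positive barcodes of Lats2iECKO and 109.8 and 100.98 CPM in controls. The deleted exon is not given in the sources used here, and 3′ tags outside it would not show the loss. In members Lats2 stood at 38.6 and 24.2 against 39.1 and 35.1 CPM (log2 fold change -0.24 ± 0.20, SE, edgeR adjusted p = 0.63), and the groups overlapped.

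Few genes were called between genotypes in the members. Of 6622 genes tested, 170 (2.57%) were higher and 36 (0.544%) lower in Lats2iECKO members at an adjusted p of 0.05 or less in edgeR's quasi-likelihood test on library sums. A change of at least 2-fold was reached by 48 of the higher and 2 of the lower genes. The log2 fold change of 92.4% of the genes lay within 0.5 of 0, and the median was 0.0035. An unadjusted p under 0.05 was reached by 1055 genes in the same edgeR test. A gene that was not called is therefore not shown to be unchanged. Without the gene filter edgeR called 285 higher and 244 lower. DESeq2 called 90 higher and 12 lower, 100 of them also called by edgeR. It ended 17 of the calls of named genes, those of Aldh1l2, Ccnd2, Col12a1, Creb3l3, Creld2, Dkk1, Dmp1, Fmod, Galnt3, Manf, Mgp, Mob3b, Nfatc1, Phospho1, Prrx1, Slc8a3 and Tpi1. Without the first control library edgeR called 108 and 14, and without the second 84 and 9. Leaving out members with at least 10 Col2a1 UMIs per 10000, an alternative chosen after seeing the data, ended 20 of 52 calls of named genes. It moved Ccn2 to 0.91, Fmod to 0.68, Col12a1 to 0.67 and Mgp to 0.19, and also ended the calls of Adamts9, Aldh1l2, Ccnd2, Cemip, Galnt3, Gapdh, Manf, Mob3b, Pgk1, Prrx1, Sel1l, Thbs1 and Tpi1. The fold changes below are Lats2iECKO over control, on the log2 scale with SE. Counts of called genes in each list below stand beside the 2.57% higher and 0.544% lower of all genes tested. No list was tested as a set.

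**Figure D3:**
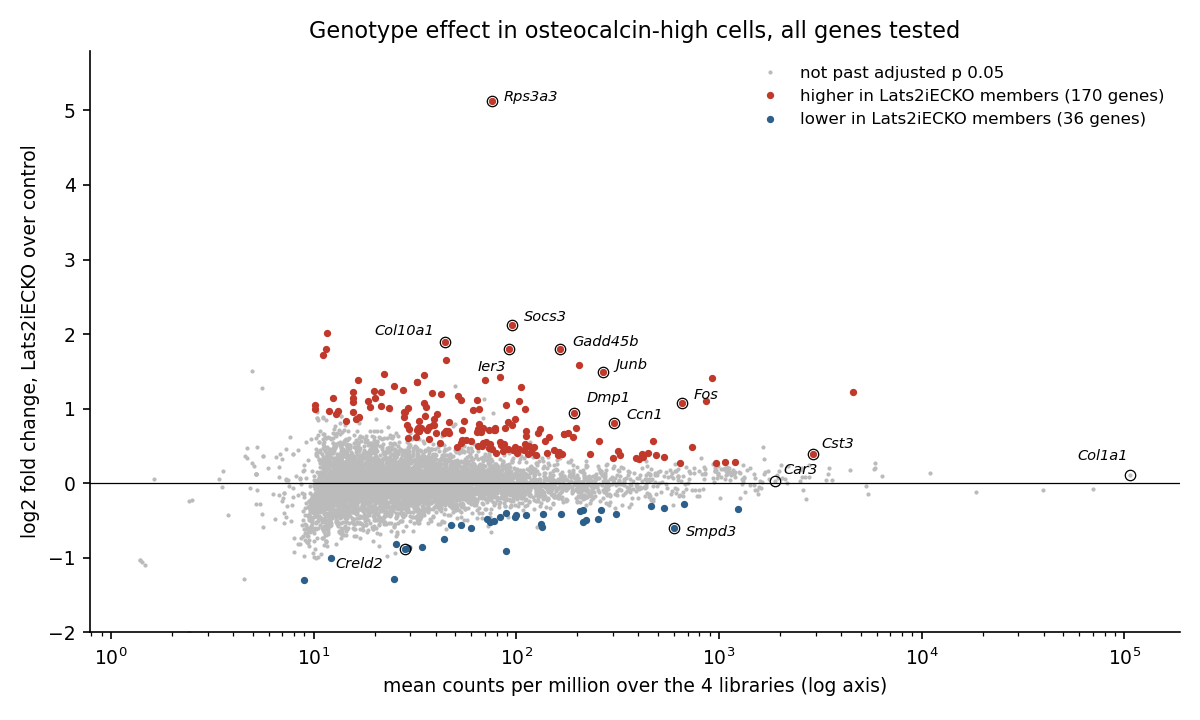
Each point is a gene tested in the members, with its mean CPM over the 4 libraries on a log axis and its log2 fold change, and colors mark the 170 genes higher and 36 lower in Lats2iECKO at adjusted p 0.05. Col1a1 and Car3 lie near 0 at high abundance, Socs3, Gadd45b and Junb rose, and Smpd3 fell.

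The abundant matrix genes did not pass the test. Col1a1, a chain of type I collagen, was at 114392 and 104285 CPM in Lats2iECKO and 104981 and 103437 CPM in control members (0.11 ± 0.12, edgeR adjusted p = 0.72). Cpz differed by -0.09 ± 0.08 (edgeR adjusted p = 0.67) and Car3 by 0.03 ± 0.07 (edgeR adjusted p = 0.91). Both genes followed the Bglap level that chose the members, as described below. In Col1a1-high, Bglap-low cells Car3 was lower, at 364 and 553 CPM in Lats2iECKO against 1290 and 1143 CPM in control libraries (-1.31, edgeR adjusted p = 0.0015). Its effect in members minus that in these cells was 1.36 ± 0.22 (edgeR adjusted p = 0.0049). Bglap, whose level bounds both classes, was also lower in these cells, at 2352 and 2947 against 6266 and 6850 CPM. The rule keeps Bglap high in members of both genotypes. The Car3 difference therefore cannot be told apart from the choice by Bglap. Cpz was not called there (-0.60, edgeR adjusted p = 0.077). Of 25 bone matrix genes tested, 3 rose and none fell, with a median of 0.03 beside 0.0035 for all genes. Ibsp and Spp1, phosphoproteins of bone matrix, stood at 2412 to 2723 and 1001 to 1262 CPM and did not pass. Some alternatives called them higher. Spp1 was called without called doublets (0.25, edgeR adjusted p = 0.030). Ibsp was called with Bglap at 100 or more per 10000 (0.35, edgeR adjusted p = 0.038) and without the Ifitm5 criterion (0.23, edgeR adjusted p = 0.031). Without 1 library Spp1 ranged from 0.050 to 0.37 and Ibsp from 0.16 to 0.20. The genes that rose in the main test were Mgp, an inhibitor of calcification, Col12a1 and Fmod, the latter a proteoglycan of collagen fibrils. Their levels were low in members and high in other barcodes. Mgp had 226 and 374 against 207 and 212 CPM in members, with 11730 to 16285 CPM elsewhere. All 3 calls ended without the second Lats2iECKO library, in which a single cell held 42.1% of the Fmod and 58.2% of the Col12a1 counts. After free RNA was subtracted, Mgp was at 0 in each library. Without the second Lats2iECKO library the fold changes were 0.19 for Mgp, 0.31 for Col12a1 and 0.26 for Fmod. None of 25 genes for collagen synthesis and crosslinking, such as the lysyl oxidase Lox at 586 and 593 against 666 and 693 CPM, was called in either direction, with a median of -0.02. Some alternatives called Lox and Col1a2 lower. Without the gene filter they stood at -0.27 and -0.17 (edgeR adjusted p = 0.010 and 0.00085). Without the Ifitm5 criterion they stood at -0.36 and -0.26 (edgeR adjusted p = 0.0040 and 0.044).

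Most mineralization genes were not called, and the calls went in both directions. Smpd3, a sphingomyelinase of cell membranes whose loss impairs mineralization, stood at 461 and 471 CPM in Lats2iECKO and 725 and 729 CPM in control members (-0.61 ± 0.07, edgeR adjusted p = 0.00011). Both mutant libraries lay below both controls, and the call held under every alternative tried. Thinned to 2000 UMIs per cell, 60.5% and 60.1% of mutant and 70.5% and 71.0% of control members had a Smpd3 UMI, against 2.80% to 6.94% of Cdh5-positive barcodes. Unthinned the shares were 96.0% to 97.7% in every library. Smpd3 was also lower in the other passing barcodes, at 160 and 140 against 282 and 283 CPM. These are a mixture of cell types, and Col1a1 was lower there too (-1.06). Col1a1-high, Bglap-low cells were 0.916% and 1.102% of passing barcodes in Lats2iECKO and 2.11% and 1.90% in control libraries. The part of cell make-up in the Smpd3 level there was not tested. Of 13 mineralization genes tested, 2 rose, 2 fell and 9 were not called, with a median of -0.03. Over all genes tested, 2.57% rose and 0.544% fell. Slc8a3, a sodium-calcium exchanger, fell by 0.37 on the log2 scale with 155 and 199 against 239 and 234 CPM. That call ended without the first Lats2iECKO library (fold change -0.25) or either control library (-0.36 and -0.40), and without Col2a1-rich members (-0.15). Phospho1, the phosphatase of matrix vesicles, rose with 49.0 and 89.6 against 39.6 and 41.3 CPM, but not without the second Lats2iECKO library (0.35) or without either control library (0.79 and 0.85). Alpl, the tissue-nonspecific alkaline phosphatase, had 533 and 419 against 406 and 384 CPM and did not pass (0.30 ± 0.10, edgeR adjusted p = 0.14). Without called doublets Alpl was called higher (0.35, edgeR adjusted p = 0.042). Leaving out 1 library moved it over 0.082 to 0.51.

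Dmp1, a mineralization protein of late osteoblasts and osteocytes, stood at 324 and 181 CPM in Lats2iECKO against 145 and 121 CPM in control members (0.94 ± 0.18, edgeR adjusted p = 0.012). The groups did not overlap, but the counts were uneven. The 3 richest cells held 41.5% and 50.5% of Dmp1 counts in mutant and 15.6% and 18.7% in control libraries. A Dmp1 UMI was found in 35.9% and 41.0% of mutant and 46.7% and 40.6% of control members, and in 0.515% to 2.29% of Cdh5-positive barcodes. Thinned to 2000 UMIs the shares were 18.0% and 15.4% against 16.5% and 13.7%, and the groups overlapped. The call ended in DESeq2 (adjusted p = 0.41) and without the first Lats2iECKO library (0.44, edgeR adjusted p = 0.088). Phex, a peptidase that controls phosphate handling, was at 201 and 244 against 250 and 245 CPM and did not pass. Without the Ifitm5 criterion Phex was called lower (-0.31, edgeR adjusted p = 0.047). Sost, the osteocyte gene of sclerostin, had a UMI in 0% to 1.20% of members and in 0.214% to 0.650% of Cdh5-positive barcodes, a level of background. Mepe had one in 2.56% to 6.02% of members and 0.107% to 0.729% of Cdh5-positive barcodes, and thinned to 2000 UMIs in 0.208% to 1.05% and 0.0216% to 0.157%. Of 12 osteocyte genes tested, Dmp1 and Dkk1 rose and none fell, with a median of -0.15. Dkk1, a secreted inhibitor of Wnt signaling, had 33.5 and 70.7 against 28.4 and 28.9 CPM, and its call ended without the second Lats2iECKO library (0.30) or without either control library (0.90 and 0.93). It was the only call among 15 Wnt pathway genes tested.

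Of 20 osteoblast transcription factors tested, 1 rose and 1 fell, beside 2.57% and 0.544% of all genes, with a median of -0.03. Runx2 stood at 599 and 731 against 734 and 697 CPM, with no call (-0.07 ± 0.08, edgeR adjusted p = 0.72). Nfatc1, a factor of calcium signaling, rose at a low level, with 42.6 and 45.6 against 31.6 and 28.5 CPM (0.59 ± 0.15, edgeR adjusted p = 0.046), and lost its call whichever library was left out, at 0.51 to 0.67.

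Genes of the secretory pathway and the unfolded protein response, which folds and exports the matrix proteins, had the lowest median of the lists with 10 or more genes tested. Of 36 tested, 3 fell and none rose, beside 0.544% and 2.57% of all genes, with a median of -0.16. Creld2, a chaperone of the endoplasmic reticulum, stood at 16.1 and 22.8 CPM in Lats2iECKO and 37.0 and 37.4 CPM in control members (-0.88 ± 0.18, edgeR adjusted p = 0.015). Sel1l, of the machinery that removes misfolded proteins, had 20.3 and 16.4 against 35.2 and 30.2 CPM. Manf, a stress-induced secreted protein, had 198 and 254 against 293 and 300 CPM (-0.35 ± 0.08, edgeR adjusted p = 0.036). For each of the 3, both mutant libraries lay below both controls. The calls were fragile. Sel1l lost its call whichever library was left out (-0.997 to -0.61), Creld2 without the first Lats2iECKO (-0.71) or the second control library (-0.88), and Manf without the first Lats2iECKO (-0.23) or either control library (-0.37 and -0.34). Hsp90b1, the abundant chaperone of this compartment, fell short of the threshold with 234 and 271 against 325 and 309 CPM (-0.29 ± 0.07, edgeR adjusted p = 0.051). Creb3l3, a membrane-bound transcription factor, was also among the genes that fell most, with 21.0 and 19.9 against 36.1 and 39.7 CPM. Its call ended without the second library of either genotype (-0.78 and -0.79). Galnt3, the enzyme that protects FGF23 from cleavage, had 47.5 and 46.8 against 73.5 and 72.1 CPM. That call ended without the second Lats2iECKO library (-0.54) or either control library (-0.57 and -0.61).

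In the BMP and TGF-beta pathway, 2 of 25 genes tested rose and none fell, beside 2.57% and 0.544% of all genes. The median was 0.18. Smad7, the inhibitor that TGF-beta induces, stood at 79.0 and 93.0 CPM in Lats2iECKO and 43.0 and 45.2 CPM in control members (1.00 ± 0.11, edgeR adjusted p = 0.00016). The ligand gene Tgfb1 stood at 141 and 168 against 96.7 and 103 CPM (0.67 ± 0.09, edgeR adjusted p = 0.00066). Both calls held under every alternative tried, and neither group overlapped the other. In the other passing barcodes these genes were also higher in Lats2iECKO, by 0.83 and 0.52. Among 20 genes of fibrosis and myofibroblasts, Col3a1, a fibrillar collagen of soft tissue, rose with 128 and 112 against 75.8 and 66.5 CPM (0.78 ± 0.11, edgeR adjusted p = 0.0012). Thbs1, a matrix protein that activates latent TGF-beta, had 442 and 558 against 404 and 370 CPM. The Thbs1 call ended without the second library of either genotype (0.27 and 0.34). No gene of this list fell, and its median was 0.10. Col3a1 was also the 1 gene that rose among 13 early osteoblast genes tested, where Prrx1, a factor of mesenchymal progenitors, fell. Prrx1 had 79.7 and 88.9 against 115 and 116 CPM and lost its call whichever library was left out (-0.46 to -0.38).

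Of 12 targets of YAP1 and TAZ, the coactivators that LATS kinases restrain, 3 rose and none fell, beside 2.57% and 0.544% of all genes. Their median was 0.16. Ccn1, a secreted matricellular protein, stood at 361 and 403 CPM in Lats2iECKO and 238 and 210 CPM in control members (0.81 ± 0.08, edgeR adjusted p = 3.6e-05). Dlc1 had 140 and 143 against 104 and 103 CPM (0.49 ± 0.08, edgeR adjusted p = 0.0048). Its call ended without either control library (0.50 and 0.48). Ccn2 had 41.2 and 94.1 against 26.6 and 18.8 CPM, but 1 cell held 42.4% and 59.6% of its mutant counts, free RNA held 1377 and 1355 against 562 and 573 CPM, and the call ended without the second Lats2iECKO library (0.95) and without called doublets (0.92). With free RNA subtracted, which left 0 and 44.4 against 3.14 and 0 CPM, it was not called either. Pth1r, the receptor of parathyroid hormone, rose from 375 and 360 CPM in control to 482 and 458 CPM in Lats2iECKO members (0.39 ± 0.07, edgeR adjusted p = 0.0074). Without the second control library it stood at 0.36 and was not called. It was the 1 call among 12 genes of PTH signaling and osteoclast coupling, and the median of these was -0.05. None of 8 genes of IGF and FGF signaling passed the test (median 0.14).

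**Figure D4:**
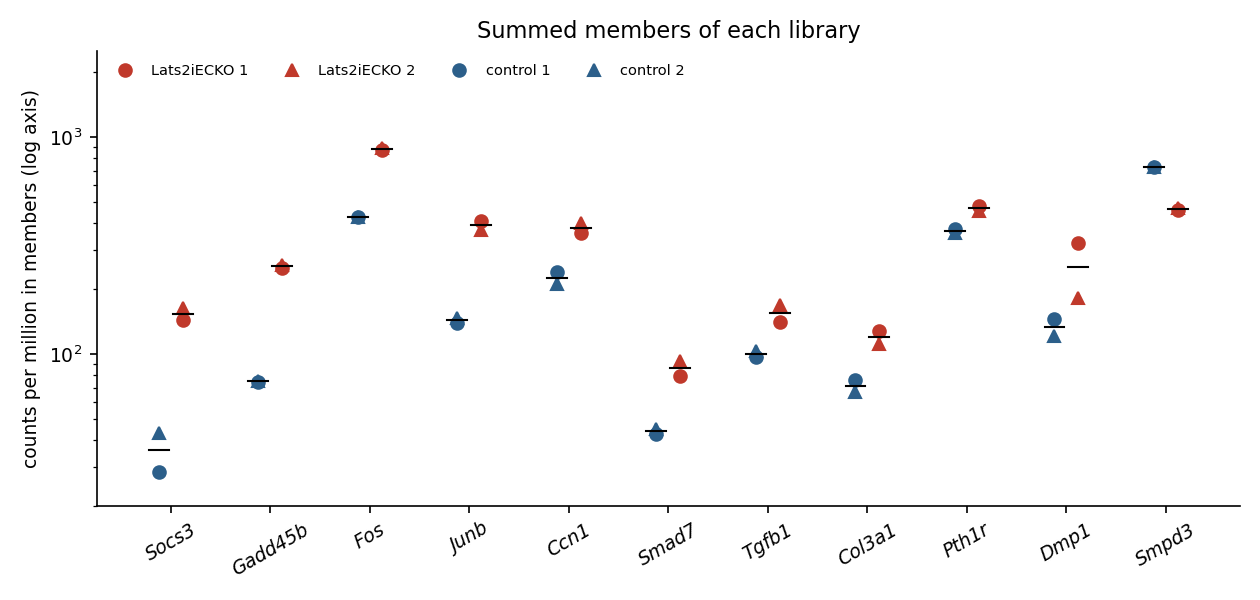
CPM on a log axis of 11 genes in the summed members of each library, with bars at the genotype means. The Lats2iECKO points lie above both controls for Socs3 to Dmp1 and below both for Smpd3, and the 324 and 181 CPM of Dmp1 are the widest pair.

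The list with the most genes called was that of immediate early and stress genes, which cells switch on within minutes of a stimulus and also during tissue dissociation. Of 26 tested, 16 rose and none fell, with a median of 0.66. Fos stood at 870 and 890 CPM in Lats2iECKO against 426 and 428 CPM in control members (1.08 ± 0.06, edgeR adjusted p = 2.2e-07). Junb, its partner in AP-1, stood at 409 and 374 against 139 and 147 CPM (1.49 ± 0.08). Gadd45b, a stress sensor, stood at 249 and 258 against 74.6 and 75.1 CPM (1.79 ± 0.08, edgeR adjusted p = 1.4e-08). Socs3, the feedback inhibitor of cytokine signaling through STAT3, stood at 144 and 163 against 28.6 and 43.2 CPM (2.13 ± 0.16, edgeR adjusted p = 2.2e-06). In each of these 4 genes the groups did not overlap and the call held under every alternative tried. Ier3, Atf3 and Zfp36 were also called under all of them, with fold changes of 1.81, 1.42 and 1.29.

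The same list was also higher in the other barcodes of the mutant libraries. The summed level of the list was 4525 and 4970 CPM in Lats2iECKO against 2858 and 2921 CPM in control members, and 13944 and 13027 against 7791 and 8037 CPM in the other passing barcodes. In these barcodes 22 of 27 genes of the list were called higher and 5 lower. Calls were common there, with 2183 (36.8%) of 5931 genes tested higher and 2236 (37.7%) lower. Free RNA held 12413 and 12129 against 7025 and 7026 CPM. A free RNA profile was subtracted at the median share over marker lists, 3.06% to 4.19% of member counts. Fos then stood at 832 and 844 against 401 and 408 CPM and Socs3 at 134 and 152 against 22.1 and 38.3 CPM. Single lists gave larger shares, up to 16.4% (chondrocyte) and 18.0% (reticular stromal) in the second Lats2iECKO library. The levels at such shares were not tested. The median mitochondrial share of members was 4.59% and 3.84% in Lats2iECKO against 3.57% and 3.71% in control libraries, and its part in the result was not tested. The effect on Socs3 was larger in members than in Bglap-intermediate cells by 0.84 ± 0.17 (edgeR adjusted p = 0.032), a class described below. That call ended without either control library (0.67 and 1.02). The difference did not pass against Col1a1-high, Bglap-low cells (0.97 ± 0.27, edgeR adjusted p = 0.074) or Mepe-expressing cells (0.61 ± 0.48, edgeR adjusted p = 0.87). Against Bglap-intermediate cells the differences for Ier3, Gadd45b and Junb did not pass either (0.60, 0.40 and 0.51, edgeR adjusted p = 0.12, 0.11 and 0.051). A Socs3 UMI was found in 17.3% and 17.7% of mutant and 5.34% and 7.38% of control members thinned to 2000 UMIs. Unthinned the shares were 41.0% and 49.4% against 28.8% and 34.0%, and in thinned Cdh5-positive barcodes 28.5% and 27.9% against 16.8% and 17.3%. Not every gene of the list was found in more mutant members. A Fos UMI was in 73.1% and 78.3% of mutant against 82.7% and 86.1% of control members, thinned 47.5% and 51.9% against 40.8% and 42.8%. For Junb the shares were 65.4% and 68.7% against 65.2% and 68.4%, thinned 32.9% and 32.7% against 19.7% and 20.4%. Irf1 rose among 11 genes of MHC class I and interferon responses, with 23.8 and 31.6 against 13.0 and 11.3 CPM (1.24 ± 0.19, edgeR adjusted p = 0.0026), not called without the second Lats2iECKO library (1.04). The median of these genes was -0.09.

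Of 22 genes of hypoxia and glycolysis tested, 5 rose and none fell, beside 2.57% and 0.544% of all genes, with a median of 0.29. Ldha, lactate dehydrogenase, stood at 168 and 158 against 111 and 115 CPM (0.56 ± 0.09, edgeR adjusted p = 0.0022). Gapdh had 168 and 181 against 126 and 138 CPM (0.44 ± 0.08), and Ndrg1, a hypoxia-induced gene, 76.2 and 94.1 against 55.9 and 49.1 CPM (0.74 ± 0.12). Each of these, Pgk1 and Tpi1 had both mutant libraries above both controls. Ldha stood at 650 and 609 against 272 and 283 CPM in other barcodes and at 557 and 559 against 227 and 236 CPM in free RNA. In the other barcodes 27 of 30 genes of the list were called higher and 1 lower, beside the 36.8% and 37.7% of all genes tested there. With the free RNA profile subtracted, Gapdh, Pgk1 and Tpi1 were not called (0.35, 0.43 and 0.41) while Ldha and Ndrg1 were. That subtraction used the median share over marker lists. The chondrocyte list alone gave larger shares, 6.77% and 16.4% in Lats2iECKO and 11.8% and 8.47% in control members. Whether the calls of Ldha and Ndrg1 hold at such shares was not tested. With members set at 400 or more Bglap UMIs per 10000, Ldha, Pgk1 and Tpi1 were not called (0.34, 0.37 and 0.28). Without the second Lats2iECKO library, Gapdh, Ndrg1, Pgk1 and Tpi1 lost their calls (0.43, 0.61, 0.54 and 0.39). So did Gapdh, Pgk1 and Tpi1 without the first control library (0.38, 0.72 and 0.47) and Ndrg1, Pgk1 and Tpi1 without the second (0.64, 0.61 and 0.59).

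**Figure D5:**
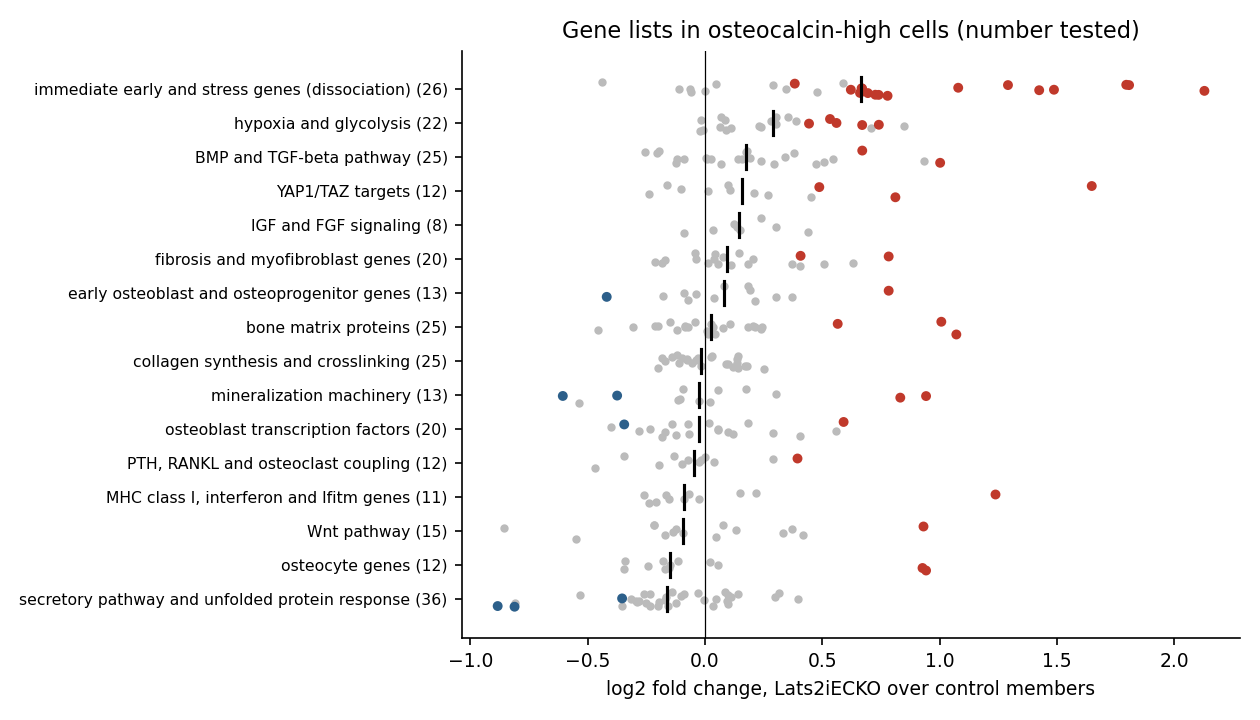
Log2 fold changes, Lats2iECKO over control members, of the tested genes of each list with 8 or more genes tested, marker lists of other cell types left out, with the number tested beside its name, red for genes that rose and blue for genes that fell at adjusted p 0.05 and gray for the others; black bars are medians. The medians of these lists run from 0.66 for immediate early and stress genes to -0.16 for the secretory pathway, beside 0.0035 for all genes tested.

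Most markers of other cell types were low in the members but not absent, and some moved with genotype. The fibroblast list summed to 5096 to 5499 CPM in members, above the 3368 to 3920 CPM of the other passing barcodes. Of its 7 genes Dcn, the proteoglycan decorin, which bone matrix also holds, gave 5094 to 5496 CPM and was not called (-0.04, edgeR adjusted p = 0.85). Endothelial markers summed to 12.0 to 24.6 CPM and leukocyte markers to 2.80 to 9.88 CPM, and none of either list was frequent enough to be tested. Col2a1, the chondrocyte collagen, was at 1083 and 2723 against 1574 and 1206 CPM, with a UMI in 87.2% to 92.7% of members and in 59.4% to 66.9% of Cdh5-positive barcodes. The sum of the 14 chondrocyte markers was 1476 and 3813 against 2118 and 1556 CPM in members. Col10a1 of hypertrophic chondrocytes was the 1 call among 8 tested. It had 95.8 and 43.8 against 13.4 and 23.9 CPM, 3874 and 3872 against 1442 and 1353 CPM in free RNA, and 0 in each library once free RNA was subtracted. It lost its call without the first Lats2iECKO library (1.22), where 1 cell held 53.3% of its counts. Hbb-bs of red blood cells rose with 251 and 358 against 76.1 and 133 CPM, beside 27832 and 28835 against 6299 and 6384 CPM in free RNA, and was also 0 in each library after subtraction. The erythroid list summed to 459 and 664 against 167 and 328 CPM in members. Free RNA was put at 3.06% to 4.19% of member counts, as the median over marker lists, which ranged from 0.845% to 18.0%. Called doublets were 2, 5, 31 and 37 members, in the order of the libraries above.

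Rps3a3 had the largest fold change of all, with 184 and 110 CPM in Lats2iECKO against 4.06 and 4.48 CPM in control members (5.12 ± 0.24, edgeR adjusted p = 2.6e-08). Its sequence is close to that of a gene for a ribosomal protein, and reads may be shared between both, which leaves its level uncertain. The difference was of the same kind in other barcodes, at 466 and 457 against 7.86 and 9.42 CPM. Among other genes with the largest changes, Rasl11a and Bhlhe40 rose by 1.47 and 1.46, the first called under all 15 of 17 alternatives that gave a value for it and the second under all 17. Lurap1l, Mob3b, Cemip, Aldh1l2 and Ccnd2 fell, with fold changes of -0.86, -0.75, -0.58, -0.57 and -0.56. Aldh1l2 and Ccnd2 lost their calls whichever library was left out (-0.61 to -0.52 and -0.58 to -0.53). Lurap1l lost it without the second Lats2iECKO or the first control library (-0.78 each), Cemip without the second control library (-0.49), and Mob3b without the second Lats2iECKO (-0.50) or either control library (-0.69 and -0.79).

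The genotype effect on members was also compared with that in classes set by Col1a1, Bglap or Mepe levels, none of them pure. The Col1a1-high, Bglap-low class and the Bglap-intermediate class can share cells, and every comparison uses the same members. A gene that differs in both comparisons is therefore not independent evidence. In a test of the interaction of class and genotype with Col1a1-high, Bglap-low cells (47, 65, 145 and 130 cells), 121 of 7027 genes (1.72%) had a positive and 118 (1.68%) a negative difference. A difference is the signed log2 effect in members minus that in the other class, so it is positive also where a gene fell less in members. Phex stood at 127 and 186 against 478 and 572 CPM in these cells and at 201 and 244 against 250 and 245 CPM in members (difference of effects 1.53 ± 0.20, edgeR adjusted p = 0.00099). Adamts9, a matrix protease, stood at 112 and 105 against 301 and 313 CPM there and rose in members, with 82.5 and 98.2 against 58.8 and 54.6 CPM (2.13 ± 0.19, edgeR adjusted p = 5.0e-05). The rise in members was not called without the second control library (0.65). Dmp1 stood at 51.5 and 166 against 309 and 252 CPM there (difference 2.08 ± 0.47, edgeR adjusted p = 0.030). Ndufa4l2, a hypoxia-induced mitochondrial gene, was at 511 and 752 against 66.8 and 50.1 CPM in these cells and at 66.4 and 93.5 against 44.8 and 38.7 CPM in members (-2.55 ± 0.19). Mfge8, a secreted glycoprotein, stood at 715 and 743 against 87.1 and 73.1 CPM there and at 16.1 and 35.7 against 28.2 and 24.9 CPM in members (-3.27 ± 0.24). The difference for Smpd3 did not pass (0.15 ± 0.16, edgeR adjusted p = 0.71), nor did that for Pth1r (-0.03 ± 0.17, edgeR adjusted p = 0.96). Col2a1 was at 5099 and 4958 against 1694 and 1453 CPM in these cells, and the part of chondrocyte RNA in the differences was not tested. Bglap, whose level bounds both classes, was at 2352 and 2947 against 6266 and 6850 CPM in these cells. Its part in the differences was not tested either.

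Against Bglap-intermediate cells, those with 20 to under 200 Bglap UMIs per 10000 and no more than 1 Mepe UMI (152, 133, 412 and 426 cells), 340 of 7872 genes (4.32%) had a positive and 132 (1.68%) a negative difference. This class held Col2a1 at 23732 to 34236 CPM and is not a pure osteoblast class. Its Col1a1 stood at 3911 and 12723 CPM in Lats2iECKO and 15956 and 18156 CPM in control libraries. Reticular stromal markers reached 7.19% and 5.13% of their free RNA level in Lats2iECKO and 18.6% and 21.6% in control libraries. The part of cell make-up in the differences was not tested. Zeb2, a transcriptional repressor, stood at 123 and 146 against 598 and 571 CPM in these cells and at 322 and 360 against 416 and 387 CPM in members (1.72 ± 0.12, edgeR adjusted p = 0.0013). P4ha2, a collagen prolyl hydroxylase, stood at 241 and 205 against 92.1 and 92.7 CPM there and at 107 and 88.3 against 114 and 115 CPM in members (-1.66 ± 0.12, edgeR adjusted p = 0.0013). Mepe-expressing cells, a class set by a single osteocyte marker, numbered 17, 21, 12 and 19. They also held the chondrocyte genes Col2a1 at 6698 to 20551 CPM and Col10a1 at 2436 to 4735 CPM, so the class is not one of osteocytes alone, and the part of this in the differences was not tested. Against these, 2 of 7422 genes (0.0269%) differed in effect, the metallothioneins Mt1 and Mt2, which bind zinc. Both calls ended without the first control library (-4.12 and -3.94), and that of Mt2 also with RLE size factors (-4.75) and with free RNA subtracted (-5.29). Mt1 was at 1228 and 1281 against 29.4 and 69.7 CPM there and at 170 and 170 against 167 and 155 CPM in members (-4.63 ± 0.47, edgeR adjusted p = 0.0037). An unadjusted p under 0.05 was reached by 532 genes of this comparison.

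Members also varied among themselves along the Bglap level, which the rule used, so the following is a description. Members with at least 1000 Bglap UMIs per 10000 had medians of 23960 to 28245 UMIs, and those below had 12677 to 16409. Levels were therefore scaled to the counts outside the osteocalcin genes. The ratio of the high to the low class was 1.25 to 1.51 over the 4 libraries for Sparc, a collagen-binding matrix protein. It was 1.27 to 1.46 for Ifitm5, 1.30 to 1.43 for Cpz, 1.18 to 1.51 for Car3 and 1.19 to 1.63 for the citrate carrier Slc13a5. In the other direction it was 0.56 to 0.87 for Runx2, 0.47 to 0.78 for Phex and 0.27 to 0.96 for Spp1. Dmp1 had no common direction, at 0.27 to 2.22. Smpd3 differed little between the classes, at 0.87 to 1.02. For Junb the ratio was 0.54 and 0.52 in Lats2iECKO and 0.80 in each control library. For Fos it was 0.81 and 0.46 against 0.98 and 1.27.

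Over 16 sums, the 4 libraries in members, Mepe-expressing, Bglap-intermediate and all other cells, the genes whose log2 CPM followed Bglap most closely among 1927 were Bglap2 (Pearson r = 0.998) and Bglap3 (0.996), which share reads with it. Next came C1qtnf6 (0.953), Prss35 (0.949), Golt1b (0.943), Serp1 (0.939) and Cthrc1 (0.930). C1qtnf6 was at 160 to 218 CPM in members and Cthrc1, a secreted protein of matrix-forming cells, at 600 to 635 CPM. Sppl2a, Serpinf1, which encodes the secreted protein PEDF, and Lman1, a cargo receptor of the secretory pathway, followed with 0.920, 0.917 and 0.912. The sums share libraries and the members were chosen on Bglap, so these values rank genes and test nothing.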

How the data were processed

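The expected counts per gene and barcode were deposited by the authors, who made them from 10x Genomics 3′ libraries with cutadapt 3.5 and STARsolo 2.7.10a against GRCm39. Reads shared by several genes were split by expectation maximization, so 9.71% to 10.6% of nonzero values were not whole. The filters and the rule for the cells were applied to these values. Counts of members were summed per library, rounded and tested with edgeR 4.0.16 (R 4.3.3; quasi-likelihood test, TMM scaling, genotype alone, Benjamini-Hochberg adjustment over all genes tested). Genes passed filterByExpr and had a UMI in at least 20% of members of either genotype. Bglap, Bglap2, Bglap3, Ifitm5, Cdh5 and Ptprc were left out of the tests. Differences between classes came from an interaction term with library as a block. Free RNA was the summed profile of barcodes under 100 UMIs. DESeq2 1.42.0 was an alternative, with the others given at the end. Named genes were the markers, the 10 largest changes in each direction at a mean of at least 20 CPM, leading genes of each list and of each difference between classes, and those most like Bglap. The members and the gene lists were chosen with earlier results of these data known. A named gene is not reported here. Gene positions follow GRCm39. On simulated sums for this comparison, the test called 50 of 50 genes changed by a log2 of 1, 48 of 50 changed by -1 and 5 of 6419 unchanged genes. The changed genes had a mean of at least 20 CPM, and the simulated spread was that fitted to these data. Smaller changes were not simulated, so the reach of the test for them is not known. Doublets were called by simulated neighbors and kept in the main test, and the samples' total depth bounds the precision as given above.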

Additional observations from a re-analysis of the deposited data

Results flagged for a closer look

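The effect of genotype was tested for a difference between osteocalcin-high cells and the comparison classes, none of them pure. The Bglap-intermediate and the Col1a1-high, Bglap-low classes can share cells. The genes below differed in edgeR's interaction test. Values are the log2 effect (Lats2iECKO over control) in members minus that in the other class, so a positive difference can also stand for a smaller fall in members. Against Mepe-expressing cells, Mt1 stood at -4.63 and Mt2 at -4.73, and the class held only 12 to 21 cells of a library and chondrocyte genes beside Mepe. Both calls ended without the first control library (-4.12 and -3.94).

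Against Bglap-intermediate cells, the difference was positive for Zeb2 (1.72), Ifitm3 (2.17), Pdgfd (1.96), Dapk2 (2.14) and Pde7b (1.93). Ifitm3, an antiviral membrane protein, stood at 70.6 and 74.2 CPM in Lats2iECKO and 75.01 and 76.0 CPM in control members, and at 41.0 and 42.5 against 208 and 229 CPM in the intermediate cells. It was negative for Loxl2 (-1.49), P4ha2 (-1.66) and Cst3 (-0.92), and for Gm12191 (-1.76) and Rpl30-ps9 (-1.78), whose reads are uncertain as predicted genes or near-copies. Cst3, a secreted protease inhibitor, was called higher in both classes (0.40 in members and 1.28 in intermediate cells). The call in members ended without the first Lats2iECKO library (0.24), without either control library (0.42 and 0.38), with free RNA subtracted (0.34) and without Col2a1-rich members (0.33).

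Against Col1a1-high, Bglap-low cells, the difference was positive for Phex (1.53), Pdgfd (1.47), Dapk2 (1.43), Adamts9 (2.13) and H2ac24 (3.07). Pdgfd, a growth factor, stood at 236 and 299 against 355 and 335 CPM in members and at 129 and 113 against 468 and 415 CPM in these cells. H2ac24, a histone gene, was uneven within both groups, with 12.9 and 68.6 against 12.4 and 45.3 CPM in members. It was negative for Mfge8 (-3.27), Ndufa4l2 (-2.55), Chad (-2.91), Clu (-2.43) and Higd1a (-2.25). Chad, a cartilage protein, stood at 51.7 and 70.2 against 102 and 70.9 CPM in members and at 1000.3 and 1772 against 311 and 225 CPM in these cells.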

How the results depend on the processing

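Of 52 named genes called in the members, none changed direction under the alternatives that gave a value for it (48 genes with free RNA subtracted, 49 with DESeq2, 51 without the Ifitm5 criterion and 52 in the others), and 16 were called under every alternative that gave a value: Rps3a3, Socs3, Ier3, Gadd45b, Hbb-bs, Junb, Rasl11a, Bhlhe40, Smpd3, Col3a1, Smad7, Tgfb1, Ccn1, Fos, Zfp36 and Atf3. For Hbb-bs, free RNA subtraction left 0 CPM in each library and so gave no value. The ratio of member shares was 4.12 to 5.92 over all alternatives, and 4.76 to 5.14 when 1 library was left out.

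Genes called higher (170) were 90 with DESeq2, 285 without the gene filter, 415 without the Ifitm5 criterion and 84 to 156 without 1 library. Genes called lower (36) were 12 with DESeq2, 244 without the filter, 66 with Bglap at 100 or more per 10000, 140 without the Ifitm5 criterion, 66 without called doublets, 60 at 2000 UMIs or more and under 10% mitochondrial counts, 20 without members rich in Col2a1 and 9 to 44 without 1 library. Of the genes called without Col2a1-rich members, an alternative chosen after seeing the data, 113 of 144 were among the 206. Gene list members called higher (40) were 78 without the Ifitm5 criterion. Those called lower (7) were 2 with DESeq2, 33 without the filter, 12 with Bglap at 100 or more, 22 without the Ifitm5 criterion, 14 without called doublets and 2 to 7 without 1 library.

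Whether replicate numbers pair the libraries is not known. Deviations of same-numbered libraries correlated at 0.00838 over 6626 genes, but with 2 libraries a genotype this value cannot exclude a pairing. With the replicate number as a block, 137 genes were higher, 22 lower and 4 list members lower, and Cxcl12 stood at -0.077.

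For the differences between classes, in the order positive and negative, the counts without the gene filter were 36 and 23 against Mepe-expressing cells (0 and 2 as reported), 560 and 812 against Bglap-intermediate cells (340 and 132), and for the negative ones 247 against Col1a1-high, Bglap-low cells (118). With RLE size factors 1 gene differed against Mepe-expressing cells. Leaving out 1 library gave 0 to 5 and 0 to 5, 214 to 589 and 48 to 385, and 40 to 97 and 67 to 89 against these classes. The cause was not tested for any of these counts.

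Genes that were not called could change sign. Col1a1 was at -0.063 without the Ifitm5 criterion and -0.0015 to 0.21 without 1 library. Car3 was at -0.072 without the filter, -0.17 without the Ifitm5 criterion, -0.16 without Col2a1-rich members and -0.019 to 0.070 without 1 library. Without 1 library, Cpz ranged from -0.21 to 0.039, Lats2 from -0.63 to 0.13, Runx2 from -0.18 to 0.027, Col2a1 from -0.28 to 0.97 and Cxcl12 from -0.96 to 0.56. With Bglap at 400 or more per 10000, Col12a1, Fmod, Ldha, Manf, Ndufa4l2, Nfatc1, Pgk1 and Tpi1 lost their calls, Runx2 was at 0.016 and Phex at 0.043. Without Col2a1-rich members Col2a1 was at -0.42 and Cxcl12 at -0.20. Cxcl12 was also at -0.0086 with DESeq2, -0.063 without the filter, -0.075 without the Ifitm5 criterion and -1.75 without called doublets.

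With 78 and 83 mutant members, 1 cell can set the level of a rare gene, and 2 libraries a genotype leave the exact tests without reach below 0.333.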

Other observations

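Other genes noted after their values were seen lie outside the lists. The mitochondrial ribosomal RNA mt-Rnr2 was at 6912 and 5831 CPM in Lats2iECKO and 2875 and 2747 CPM in control members (log2 fold change 1.22 ± 0.10, SE, edgeR adjusted p = 5.1e-06), with both mutant libraries above both controls. In the other passing barcodes it was at 9029 and 9550 against 7490 and 7317 CPM. Of 3 further genes, Stat3, a transcription factor activated by cytokines, was at 93.0 and 126 against 67.5 and 67.1 CPM (0.74, edgeR adjusted p = 0.0016). Cebpd, a factor induced in acute responses, was at 106 and 94.7 against 40.8 and 37.9 CPM (1.38, edgeR adjusted p = 1.1e-05). Nfkbia, the inhibitor of NF-kappaB, was at 123 and 156 against 69.6 and 64.0 CPM (1.102, edgeR adjusted p = 2.6e-05).

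Cxcl12, the chemokine of reticular stromal cells, was not called in members (0.04, edgeR adjusted p = 0.97). It was at 83.2 and 253 CPM in Lats2iECKO and 154 and 188 CPM in control members, and 1 cell held 79.8% and 47.7% of the mutant counts. Without called doublets Cxcl12 was called lower (-1.75, edgeR adjusted p = 0.00016), and so without the second Lats2iECKO library (-0.96, edgeR adjusted p = 0.0075), whereas without the first it was called higher (0.56, edgeR adjusted p = 0.020). Thinned to 2000 UMIs per cell, a Cxcl12 UMI was found in 4.85% and 7.83% of mutant and 13.1% and 13.9% of control members. In thinned Cdh5-positive barcodes the shares were 32.6% and 33.0% against 41.8% and 44.0%. In both classes the mutant libraries lay below the controls, and the free RNA part in these shares was not tested.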
